A study of Mus musculus with 28 samples.

Results

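The subunits of AMPA and kainate receptors, the ion channels that carry most fast excitatory signals between neurons, were followed along the body axes of the mouse brain. Their genes are Gria1 to Gria4 and Grik1 to Grik5, 9 genes of the 20660 symbols that the array probes name. They were chosen as the 2 gene families by symbol, and the probe with the highest mean level stood for each gene. All brains came from untreated male C57BL/6J mice aged 3 weeks. Each brain was frozen and cut along a single axis, and RNA of consecutive sections was pooled into fractions. Mouse 1 gave 12 coronal fractions, mouse 2 gave 6 horizontal fractions and mouse 3 gave 10 sagittal fractions, with 1 array for each. No position therefore has a replicate, and the plane of sectioning and the mouse cannot be told apart. Coronal fraction 12 also contains the fraction that followed it.

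An AMPA receptor is an assembly of Gria subunits, opened by glutamate. The Gria2 subunit, whose transcript is edited by Adarb1 at the pore, makes the channel nearly impermeable to calcium, so the share of Gria2 among the subunits sets how much calcium enters. Bergmann glia, the radial astrocytes of the cerebellum, are a textbook case of AMPA receptors made of Gria1 and Gria4 without Gria2. Kainate receptors need at least 1 of Grik1, Grik2 and Grik3 to form a channel, and Grik4 and Grik5 raise the affinity for glutamate when they join. Auxiliary proteins travel with both families. The stargazin family (Cacng2 and relatives), the cornichons Cnih2 and Cnih3, the Shisa proteins and Gsg1l bind AMPA receptors, and Neto1 and Neto2 bind kainate receptors.

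The stretch of 250 bases before the transcription start is shown for the subunits whose levels differed between the coronal ends, since the pairs run in opposite directions. The sequences are from RefSeq (GRCm38.p6), 5′ to 3′ along the gene, and 6 of the 9 members are in that table. Capitals mark the letters of the motifs searched on both strands, which were GGGCGG (the GC box), TATAAA (the TATA box), TGACGTCA (the cAMP response element) and the core of RE1, the element of the neuronal repressor REST. Gria2, at chr3:80802836-80803085 on the minus strand, and Grik5, at chr7:25072370-25072619 on the minus strand, were higher in the rostral fractions.
Gria2: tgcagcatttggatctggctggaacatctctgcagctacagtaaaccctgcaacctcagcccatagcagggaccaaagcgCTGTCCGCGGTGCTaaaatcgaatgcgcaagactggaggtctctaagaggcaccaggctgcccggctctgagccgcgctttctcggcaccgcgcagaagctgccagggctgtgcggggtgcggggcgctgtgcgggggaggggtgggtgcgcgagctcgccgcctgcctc
Grik5: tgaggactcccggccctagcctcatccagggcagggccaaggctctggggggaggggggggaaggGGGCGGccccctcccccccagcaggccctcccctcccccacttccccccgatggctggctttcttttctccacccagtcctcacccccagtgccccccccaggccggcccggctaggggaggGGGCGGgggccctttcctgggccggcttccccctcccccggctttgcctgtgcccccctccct
Gria4, at chr9:4796235-4796484 on the minus strand, and Grik2, at chr10:49788755-49789004 on the minus strand, were higher in the caudal fractions.
Gria4: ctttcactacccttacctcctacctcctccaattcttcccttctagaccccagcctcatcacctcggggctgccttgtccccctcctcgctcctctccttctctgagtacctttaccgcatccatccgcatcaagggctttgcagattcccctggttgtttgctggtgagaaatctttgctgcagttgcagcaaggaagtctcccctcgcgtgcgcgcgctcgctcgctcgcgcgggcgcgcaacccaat
Grik2: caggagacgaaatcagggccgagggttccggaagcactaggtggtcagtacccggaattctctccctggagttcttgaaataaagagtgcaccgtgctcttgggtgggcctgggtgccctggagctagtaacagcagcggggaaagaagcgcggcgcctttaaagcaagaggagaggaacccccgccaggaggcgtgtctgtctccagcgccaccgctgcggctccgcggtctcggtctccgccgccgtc
The Gria2 stretch holds 1 match to the RE1 core, on the strand opposite to the gene and ending 156 bases before the start. Such a match is in 15 of 32536 promoter stretches of this length (0.0461%). The GC box letters occur 2 times in the Grik5 stretch and are found in 33.0% of all stretches, while those of the TATA box (12.3%) and the cAMP response element (1.56%) are in none of the 6. The CpG count was 19 for Gria2, 16 for Gria4, 20 for Grik2 and 8 for Grik5, beside a median of 6 over all stretches. These matches are descriptions of the letters only.

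Levels are log2 of the processed array signal minus the 75th percentile of the same array, so a level of 0 equals that percentile. Different probes bind with different strength, so only changes between fractions are compared, not the level of one gene with that of another. Sagittal fraction 1 was the dimmest array, with 135 as its 75th percentile of signal, and 574 was the brightest. The probes detected well above background numbered 24822 to 34240 per array. No spot was saturated. The probe used for each of the 9 members was well above background on 28 of 28 arrays. A second Grik3 probe, above it on 4 of 28, was not tested. The markers fixed the orientation. Hindbrain markers peaked in coronal fraction 1 (mean of 7 genes 3.45 log2 above their coronal mean) and olfactory bulb markers in coronal fraction 12 (8 genes, 5.49 above). Hence fraction 1 is caudal and fraction 12 rostral. Cerebral cortex markers were highest in horizontal fraction 1 (8 genes, 1.08 above) and hypothalamus markers in horizontal fraction 6 (8 genes, 3.99 above). Of the hypothalamus list, Sim1 was never well above background in the horizontal series. The arrays sat on 4 slides. Slide 2 held coronal fractions 3 to 10, slide 1 held coronal fractions 1 and 2 with the horizontal series, and slide 3 held coronal fractions 11 and 12 with sagittal fractions 5 to 10. Slide 4 held sagittal fractions 1 to 4 and was scanned on another day than the rest.

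Along the coronal axis, 6 of the 9 subunits varied with position. The test was limma's F-test of a spline curve over fraction numbers (3 degrees of freedom), adjusted by Benjamini-Hochberg over 32364 probes, of which 33.7% passed. Gria4 was highest in the caudal fractions. Gria2 and Gria3 were highest in the forebrain fractions, as was Grik5. Grik2 followed the caudal side and Grik4 was lowest in the olfactory bulb. Gria1, Grik1 and Grik3 did not pass. Among fractions 3 to 10, which share a slide, 4 of the 9 passed (Gria4, Grik1, Grik2, Grik5), beside 12.9% of all probes in that fit. With slide as a term none did, beside 0.745% of all probes. The fitted ranges of Gria2, Gria3, Gria4 and Grik5 were then 3.19, 1.66, 3.58 and 2.34 (2.63, 1.55, 3.32 and 1.65 without that term). Those of Grik2 and Grik4 were 1.68 and 1.54 (1.90 and 2.25 without it). Fractions 1, 2, 11 and 12 lie on other slides than fractions 3 to 10, so slide and position cannot be told apart at the ends. Among fractions 3 to 10 alone the ranges of Gria2, Gria3 and Grik4 were smaller than in the full series, at 1.74, 0.97 and 0.67. In bulk tissue, fewer cells of a type and less RNA per cell cannot be told apart.

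**Figure D1:**
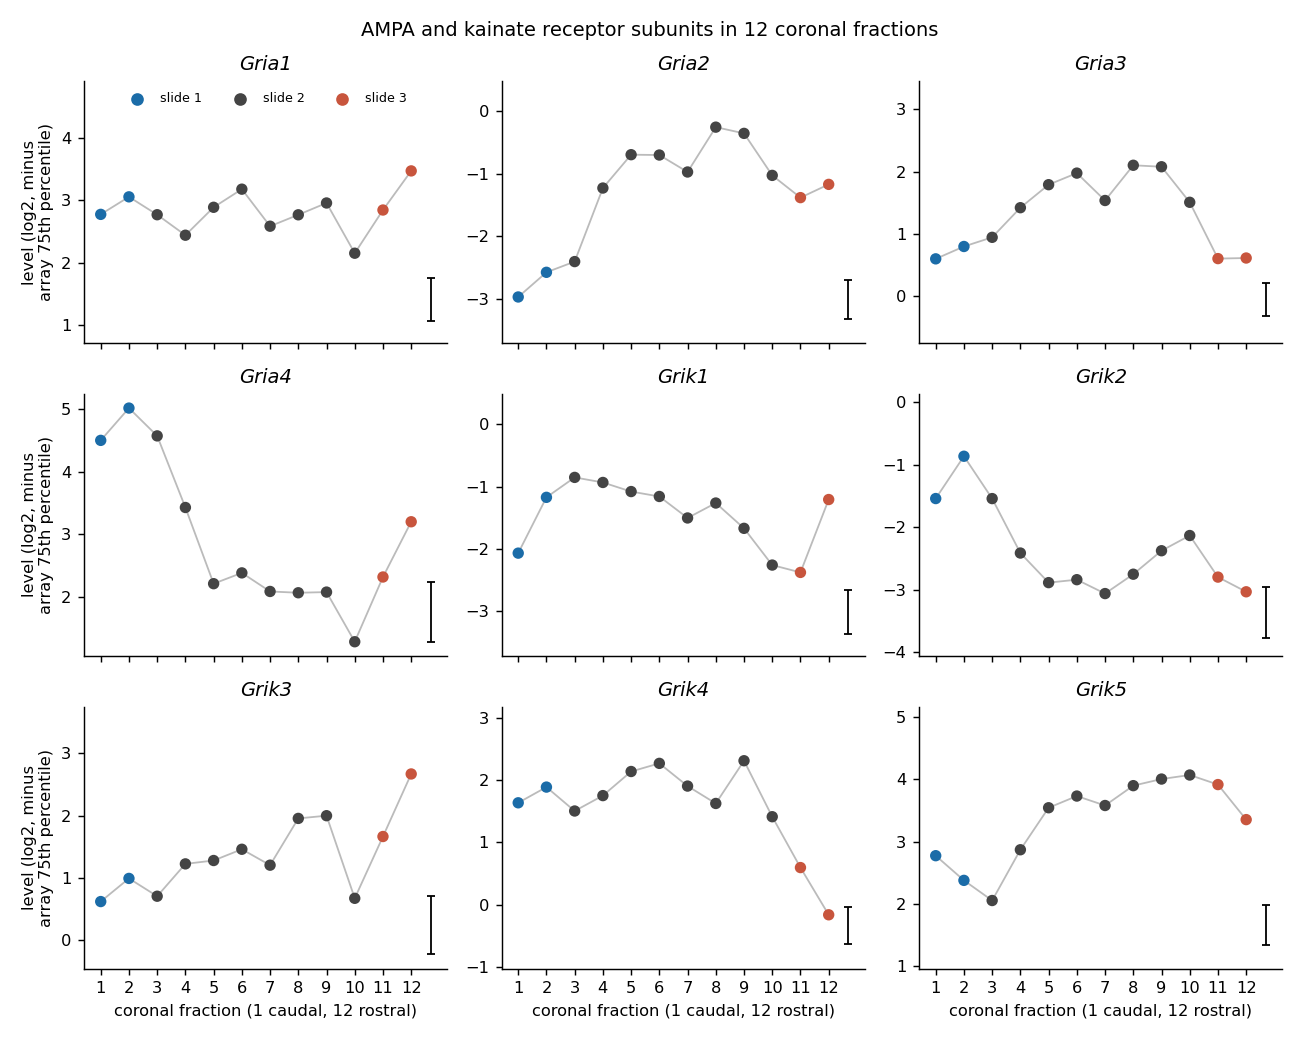
Level of each receptor subunit (log2 signal minus the array's 75th percentile) against coronal fraction number, 1 array per point, coloured by slide; each panel spans the same range of 4.2 log2 around its own centre, and the bar at the right is the residual SD around the fitted curve in both directions. Gria4 falls from 5.02 in fraction 2 to 1.28 in fraction 10, and Gria2 climbs from -2.98 in fraction 1 to -0.25 in fraction 8.

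Gria4, the AMPA subunit of fast synapses and Bergmann glia, had the widest course. Its level was 1.28 at the lowest (fraction 10), 2.35 at the median and 5.02 at the highest (fraction 2) over 12 coronal fractions, a 13.4-fold span of signal. Fractions 1 to 3 stood at 4.50, 5.02 and 4.58, and fractions 5 to 9 all lay between 2.06 and 2.38, after which fraction 12 was back at 3.20. The fitted range was 3.32 with a residual SD of 0.48 (limma, adjusted p = 0.00241). The second Gria4 probe moved with the first (r = 0.99 over the 12 fractions) and passed as well (adjusted p = 0.00410).

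Gria2, the subunit that closes the channel to calcium, ran the other way. Its lowest level was -2.98 (fraction 1), its median -1.10 and its highest -0.25 (fraction 8), with a fitted range of 2.63 and a residual SD of 0.32 (limma, adjusted p = 0.00135). The 3 most caudal fractions, at -2.98, -2.58 and -2.41, were below all others, and the step to the next fraction in the order of levels, 1.03, was larger than the residual SD. The 2 probes of Gria2 disagree. The dimmer one, named for another transcript of the gene, followed the used probe with r of only 0.02 and did not pass (fitted range 1.23, limma, adjusted p = 0.161). The course given for Gria2 is therefore that of 1 probe, and the difference between the probes has no known source here.

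Gria3 rose into the forebrain and fell again. It stood at 0.60 in fraction 1, had a median of 1.47 and reached 2.10 in fraction 8, while fractions 11 and 12 were back at 0.61 and 0.62. Its fitted range was 1.55 with a residual SD of 0.26 (limma, adjusted p = 0.00392), and its other probe passed too (adjusted p = 0.0457). Gria1, the subunit of activity-driven receptor insertion, spanned 2.15 (fraction 10) to 3.47 (fraction 12) around a median of 2.81. None of the 11 steps in its order of levels exceeded the residual SD of 0.34, and its trend did not pass (fitted range 0.53, limma, adjusted p = 0.665).

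Among the kainate subunits that form channels by themselves, only Grik2 passed. Its level was -3.06 at the lowest (fraction 7), -2.58 at the median and -0.86 at the highest (fraction 2), with fractions 1 and 3 both at -1.54. The fitted range was 1.90 with a residual SD of 0.41 (limma, adjusted p = 0.0241). Its second probe, well above background on 23 of 28 arrays, did not pass (fitted range 0.96, adjusted p = 0.399), although it followed the first with r = 0.69. The call was also lost without fraction 2 (adjusted p = 0.0558) or fraction 11 (0.0564). Grik1 spanned -2.38 (fraction 11) to -0.85 (fraction 3) around a median of -1.24 (limma, adjusted p = 0.0620), and passed without fraction 8 (0.0415) or fraction 12 (0.0108). Grik3 spanned 0.62 (fraction 1) to 2.67 (fraction 12) around a median of 1.25, and its residual SD of 0.46 was wide (limma, adjusted p = 0.124). Fraction 12 was its highest by a step of 0.67, and without fraction 10 the trend passed (adjusted p = 0.0123).

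The high-affinity subunits Grik4 and Grik5 both passed, with different courses. Grik5 was 2.06 at the lowest (fraction 3), 3.56 at the median and 4.07 at the highest (fraction 10), and fractions 1 to 4 were all below the other 8. Its fitted range was 1.65 with a residual SD of 0.32 (limma, adjusted p = 0.00623). Grik4 was nearly level from fraction 1 to fraction 9, between 1.50 and 2.31, and then fell through 1.41 and 0.60 to -0.16 in fraction 12. Its fitted range was 2.25 with a residual SD of 0.30 (limma, adjusted p = 0.00295). Without fraction 12 the range was 1.36 and did not pass (adjusted p = 0.0615).

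The size and direction along this axis were taken as the mean of fractions 9 to 12 minus that of fractions 1 to 4, in a limma fit with the middle fractions as a group of their own. Of the 9 subunits, 4 differed, 2 higher rostrally (Gria2, Grik5) and 2 lower (Gria4, Grik2). Over all probes tested 16% differed, 7.92% higher and 8.11% lower. The median difference over the members was 0.10 beside 0.03 over all probes.

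Gria4 stood at 4.50, 5.02, 4.58 and 3.43 in fractions 1 to 4 and at 2.07, 1.28, 2.31 and 3.20 in fractions 9 to 12. Every caudal value was above every rostral one. The difference was -2.17 ± 0.39 (SE, n = 4 and 4, 95% interval -3.03 to -1.31), a 4.49-fold lower rostral level (limma, adjusted p = 0.00456).

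Grik5 stood at 2.77, 2.38, 2.06 and 2.87 caudally and at 4.00, 4.07, 3.91 and 3.35 rostrally. The groups did not overlap, and the difference was 1.31 ± 0.21 (SE, n = 4 and 4, 95% interval 0.85 to 1.78), 2.49-fold (limma, adjusted p = 0.00280). Gria4 and Grik5 also differed within the shared slide (fractions 9 and 10 minus 3 and 4, n = 2 and 2), by -2.33 and 1.57 (limma, adjusted p = 0.0464 for each).

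Gria2 stood at -2.98, -2.58, -2.41 and -1.23 caudally and at -0.35, -1.03, -1.38 and -1.17 rostrally. Caudal fraction 4 reached into the rostral range. The difference was 1.31 ± 0.35 (SE, n = 4 and 4, 95% interval 0.55 to 2.08), again 2.49-fold (limma, adjusted p = 0.0268), but within the slide (fractions 9 and 10 minus 3 and 4) it was 1.13 and did not pass (adjusted p = 0.142). Leaving out fraction 1, 2, 3, 9 or 10 also ended the call (adjusted p between 0.0515 and 0.0766), and the other Gria2 probe gave 0.85 (adjusted p = 0.144).

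Grik2 stood at -1.54, -0.86, -1.54 and -2.41 caudally and at -2.38, -2.13, -2.80 and -3.04 rostrally. Here too caudal fraction 4 lay within the rostral range. The difference was -0.997 ± 0.294 (SE, n = 4 and 4, 95% interval -1.64 to -0.35), 2.00-fold lower rostrally (limma, adjusted p = 0.0410). With normexp, another treatment of background, the difference was -0.42 and did not pass (limma, adjusted p = 0.174). Its size thus depends on how background is treated. Within the slide, where fractions 9 and 10 are set against 3 and 4 without fractions 1, 2, 11 and 12, it was -0.28 (adjusted p = 0.545). Without fraction 5, 6, 7 or 8 the size stayed at -0.997 and the adjusted p was 0.0551 to 0.0590. Without fraction 1, 2, 3, 11 or 12 it lay between -0.98 and -0.75 and did not pass either.

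For the remaining 5 the interval of the difference held 0 or the adjusted p missed the threshold. Grik3 had a difference of 0.86 (95% interval 0.09 to 1.64, limma, adjusted p = 0.121) and Grik1 one of -0.62 (-1.29 to 0.05, adjusted p = 0.193). The values for Gria1, Gria3 and Grik4 were 0.10 (-0.46 to 0.65), 0.26 (-0.44 to 0.96) and -0.65 (-1.56 to 0.25). Single fractions decided 2 of these, since Grik3 passed without fraction 10 (1.22, adjusted p = 0.0174) and Grik4 without fraction 9 (-1.08, adjusted p = 0.0359).

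**Figure D2:**
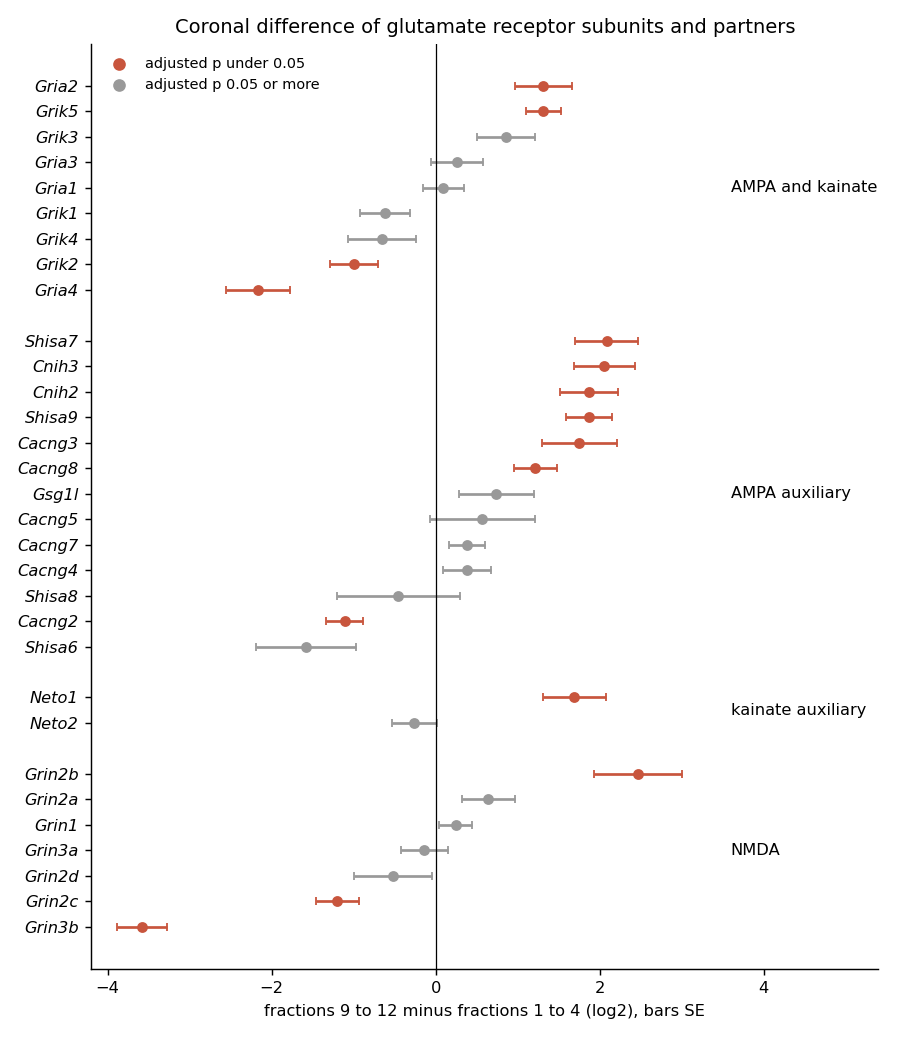
Difference between coronal fractions 9 to 12 and 1 to 4 (log2, bars are SE, n = 4 and 4) for the AMPA and kainate subunits, their auxiliary subunits and the NMDA subunits; filled red points have an adjusted p under 0.05 in limma. Gria4 at -2.17 and Grik5 at 1.31 mark opposite sides of the subunit group, and 6 of the 7 AMPA auxiliary subunits past the threshold lie to the right.

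Markers of several cell types and regions moved with these results. All 7 tested granule cell markers and all 7 Purkinje cell markers were lower rostrally (limma), and the summed granule cell signal was 6.58 to 8.39 (log2) in fractions 1 to 4 and 4.67 to 6.23 in fractions 9 to 12. The summed Purkinje cell signal was 7.62 to 9.43 and 4.16 to 5.88. Of the granule cell list only Barhl2 was never well above background in the coronal series. Bergmann glia markers fell in 2 of 4 tested, with overlapping sums of 5.62 to 6.60 and 5.40 to 6.23. Hindbrain markers were lower rostrally in 7 of 7, with sums of 0.98 to 3.00 and -3.66 to -2.58, and myelin markers in 8 of 8, with sums of 10.3 to 10.7 and 8.57 to 9.67. Microglia markers were higher rostrally in 5 of 6, with sums of 5.57 to 6.14 and 6.40 to 7.15. Pan-neuronal markers were lower in 4 of 8 and higher in 2, with sums of 9.39 to 9.52 caudally and 8.89 to 9.46 rostrally. Olfactory bulb markers were higher rostrally in 4 of 8, with sums of 3.03 to 4.43 and 2.90 to 9.12, and cerebral cortex markers in 3 of 8, with sums of 4.53 to 4.92 and 3.41 to 5.68. The part of these cell types and regions in the subunit differences was not tested. Over the 12 coronal fractions, Gria4 followed the mean of the Bergmann glia list (Pearson r = 0.97), the granule cell list (0.94) and the Purkinje cell list (0.90). Its r was also 0.85 with the hindbrain list and 0.78 with a list of astrocyte markers. Gria2 followed the cerebral cortex list (0.93) and opposed the Bergmann glia list (-0.95), and Grik5 opposed the granule cell list (-0.95). In the horizontal and sagittal series these 3 values were 0.83 and 0.39, 0.22 and 0.32, and -0.07 and -0.58. The r of Grik5 with the microglia list was 0.89 in the coronal, 0.87 in the horizontal and 0.77 in the sagittal series. With the cerebral cortex list it was 0.83, 0.93 and 0.55 in the same order. The r of Gria1 with the Bergmann glia list was 0.16 in the coronal, 0.76 in the horizontal and 0.79 in the sagittal series. Neighbouring fractions are alike and all these genes share the same arrays, so the correlations are descriptions.

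Whether 2 subunits change unequally along the axis was asked of the log2 ratio of their signals on the same array, in which the array's scaling cancels. The means of fractions 9 to 12 and 1 to 4 were compared by a two-sided exact permutation test, for 6 AMPA and 10 kainate pairs. With 70 arrangements the smallest p is 0.0286, and 6 of the 16 pairs reached it, each with groups that did not overlap. No share over other gene pairs is given beside this count, so it is a description. After Benjamini-Hochberg adjustment over the 16 pairs none passed (adjusted p = 0.0762 for these 6, exact permutation test).

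The largest shift was that of Gria2 against Gria4. Its log2 ratio was -7.48, -7.60, -6.98 and -4.66 in fractions 1 to 4 and -2.42, -2.30, -3.70 and -4.37 in fractions 9 to 12, a change of 3.48 or 11.2-fold. The ratio was thus lowest in the 3 most caudal fractions and highest around fractions 8 to 10. Gria1 against Gria4 changed by 2.26 and Gria2 against Gria3 by 1.06. The Gria2 ratios rest on the probe used. With the other Gria2 probe, chosen as an alternative after seeing the data, Gria2 against Gria4 changed by 3.02 without overlap and Gria2 against Gria3 by 0.59 with overlap (exact permutation test, p = 0.371). Among the kainate pairs, the ratio of Grik2 to Grik5 changed by -2.31, from values between -5.28 and -3.24 caudally to values between -6.71 and -6.20 rostrally. Grik4 against Grik5 changed by -1.97 and Grik1 against Grik3 by -1.49. In the horizontal series (fractions 4 to 6 minus 1 to 3) 3 of the 16 pairs did not overlap, and none could fall below the smallest p of 0.1 that 20 arrangements allow. In the sagittal series (fractions 4 to 7 minus the others, 210 arrangements, smallest p 0.00476) 4 pairs, all of kainate subunits, had an unadjusted p under 0.05, and none passed after adjustment (adjusted p = 0.152 for these 4, exact permutation test). Of these only Grik2 against Grik3 did not overlap, with a change of -1.03. No share over other gene pairs stands beside the horizontal and sagittal counts either, so they too are descriptions.

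**Figure D3:**
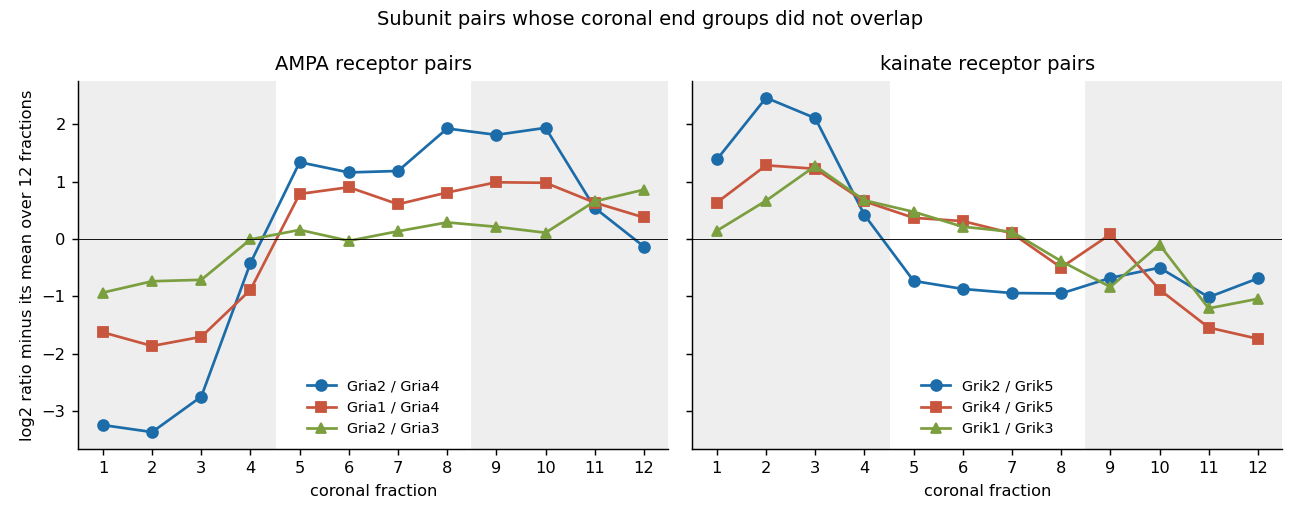
Log2 ratio of the signals of 2 subunits on the same array, minus its mean over the 12 coronal fractions, for the 6 pairs whose end groups (grey bands, fractions 1 to 4 and 9 to 12) did not overlap; 1 array per point, so no error bars. The Gria2 to Gria4 ratio changes by 3.48 between the bands, the widest shift, and the Grik2 to Grik5 ratio by -2.31.

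In the horizontal series, from dorsal cortex to the base of the brain, 3 of the 9 subunits varied with position (limma, spline with 2 degrees of freedom), beside 15.8% of all probes. All 3 were lowest in the most dorsal fraction. Gria1 was 1.61 in fraction 1 and 2.50, 2.90, 2.80, 2.75 and 2.11 in fractions 2 to 6 (adjusted p = 0.0353). Grik3 was -0.67 in fraction 1 and 1.24, 1.32, 1.61, 1.38 and 0.30 in the next ones (adjusted p = 0.0398). Gria4 was 1.79, 3.49, 3.55, 3.65, 3.06 and 1.97 from fraction 1 to fraction 6 (adjusted p = 0.0328). Thus the levels of all 3 were high in the middle and low at both ends. The end arrays were also the dimmest, with a 75th percentile of signal of 267 in fraction 1 and 233 in fraction 6, beside 385 to 458 in fractions 2 to 5, and the part of this brightness was not tested. Scaling by the array median in place of that percentile raised the share of all probes called from 15.8% to 59.8%. The fitted ranges were 1.29 for Gria1, 2.20 for Grik3 and 1.79 for Gria4, with residual SDs of 0.17, 0.31 and 0.27. Without fraction 1 the range was 0.77 for Gria1 (adjusted p = 0.185) and 1.21 for Grik3 (adjusted p = 0.138), while Gria4 still passed.

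The counts over all probes moved with those of the subunits when the fit was changed. Without fraction 3 or fraction 4 none of the 9 passed, as for 0% of all probes, and without fraction 6 none did, beside 4.13% of all probes. Gria1 was also lost without fraction 2 (adjusted p = 0.0654) and Grik3 without fraction 5 (adjusted p = 0.0518). With no filter on dim probes Gria1 was lost too (adjusted p = 0.0544), although its fitted range stayed at 1.29. A curve with 1 degree of freedom fewer, a straight line, gave none of the 9 and 1 of all probes. Grik5 fell from 3.69 in fraction 1 to 2.64 in fraction 6 and narrowly missed the threshold (adjusted p = 0.0601). The remaining 5 spanned 0.58 (Grik4) to 1.73 (Grik2) between their lowest and highest fraction. Ventral fractions 4 to 6 minus dorsal fractions 1 to 3 differed for none of the 9, as for 0% of all probes, while 1784 probes had an unadjusted p under 0.05 in limma. Over the 6 horizontal fractions, 6 of 7 granule cell markers and 6 of 8 myelin markers varied with position, both lists lowest in fraction 1 (2.39 and 2.12 below their mean), and their part in the subunit courses was not tested.

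**Figure D4:**
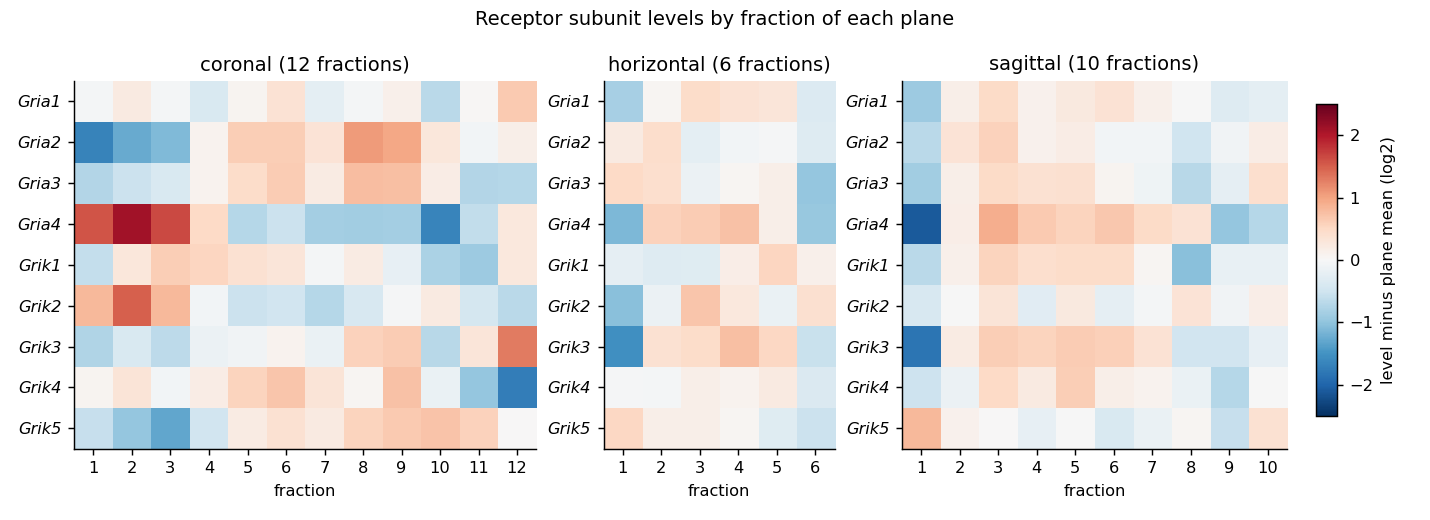
Level of each subunit minus its mean over the plane (log2, colour) in the 12 coronal, 6 horizontal and 10 sagittal fractions, 1 array per cell. Sagittal fraction 1 is low for Gria4 and Grik3 (0.84 and -0.83 as levels) and high for Grik5 (4.40), and Gria4 is high in coronal fractions 1 to 3.

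Across the sagittal series, from one side of the brain through the midline to the other, 2 of the 9 subunits varied with position (limma, spline with 3 degrees of freedom), beside 14.7% of all probes. Gria4 was 0.84 at the lowest (fraction 1), 3.36 at the median and 3.85 at the highest (fraction 3), with 1.97 and 2.23 in fractions 9 and 10 (adjusted p = 0.0426). Grik3 was -0.83 at the lowest (fraction 1), 1.28 at the median and 1.62 at the highest (fraction 5), with 0.51 and 0.79 in fractions 9 and 10 (adjusted p = 0.0328). Both were low at the sides and high in the middle, with fitted ranges of 2.60 and 2.36 and residual SDs of 0.49 and 0.38. The arrays of the sides were dimmer too, since the 75th percentile of signal was 135 in fraction 1 and 269, 176 and 205 in fractions 8 to 10, beside 365 or more in fractions 2 to 7. The part of this brightness was not tested.

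Fraction 1 was the extreme of both courses. Its array, the dimmest, lay on slide 4. Without it the fitted range was 1.70 for Gria4 (limma, adjusted p = 0.169) and 1.11 for Grik3 (adjusted p = 0.191). Among fractions 5 to 10, which share a slide, neither passed, with ranges of 1.60 and 1.21. In both of these fits 0% of all probes passed. The call for Gria4 was likewise lost without any 1 of fractions 2 to 7 (adjusted p from 0.0541 to 0.0976), and that for Grik3 without fraction 3, 4, 5 or 6 (0.0631 to 0.0833). Single fractions decided other subunits too. Gria3, which missed the threshold with all 10 fractions (adjusted p = 0.0510), passed without fraction 9 (0.0309) or 10 (0.0247). Likewise Grik4 passed without fraction 9 (0.0461) or 10 (0.0234), and Grik5 without fraction 9 (0.0327). In fraction 1 Grik5 was at its highest, 4.40, beside 3.01 to 3.97 in the other 9. Granule cell and Purkinje cell markers were lowest there, 2.91 and 2.95 below their sagittal means, as were myelin markers (2.89 below), and Gria4 followed the first 2 lists with r = 0.98 and 0.99 over 10 fractions. Their part was not tested.

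Sagittal fractions equally far from the middle of the series come closest to a repeat in this design, if the midline lies between fractions 5 and 6. That position was not tested. Of the 5 mirror pairs, all but that of fractions 5 and 6 set an array of slide 4 against one of slide 3, so side, slide and scan day cannot be told apart in them. The SD between such mirror fractions was smallest for Grik2 (0.24) and Grik5 (0.28) and largest for Gria4 (0.60) and Grik3 (0.66), whose widest gaps, 1.39 and 1.62, were between fractions 1 and 10. Between fractions 6 to 10 and 1 to 5 no subunit differed in limma when mirror fractions were blocked, as for 0% of all probes (1408 with an unadjusted p under 0.05). The differences lay between -0.36 (Grik1, 95% interval -1.07 to 0.35) and 0.05 (Grik2, -0.45 to 0.55). The middle fractions 4 to 7 did not differ from the outer 6 for any of the 9 either, beside 0.148% of all probes. There Gria4 had a difference of 0.98 (-0.12 to 2.08) and Grik3 one of 0.90 (0.04 to 1.76, adjusted p = 0.190).

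No subunit differed in its mean over a whole series between the 3 mice in limma's F-test over the 3 planes, beside 1.63% of all probes. Gria4 had means of 2.93 ± 1.21 (SD, n = 12 coronal), 2.92 ± 0.83 (n = 6 horizontal) and 2.94 ± 0.96 (n = 10 sagittal). Gria1 had the smallest p of the 9, with 2.82 ± 0.34, 2.44 ± 0.50 and 2.43 ± 0.40 (adjusted p = 0.337). These tests treat fractions as units, so they describe these 3 brains.

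The partners of the receptors were taken from lists of known binding proteins. All 13 auxiliary subunits of AMPA receptors varied along the coronal axis (limma), beside 33.7% of all probes, and their median fitted range was 2.35, beside 1.65 for the 9 receptor subunits and 0.90 for all probes. Between the ends 7 of the 13 differed, beside 16% of all probes, 6 of them higher rostrally. These included Shisa7 (2.09 ± 0.39 SE, adjusted p = 0.0050), Cnih3 (2.06 ± 0.37, adjusted p = 0.00449), Cnih2 (1.87 ± 0.36, adjusted p = 0.00594) and Shisa9 (1.87 ± 0.28, adjusted p = 0.00182). Cacng2, the gene of stargazin, was the exception, with a rostral difference of -1.11 ± 0.22 (adjusted p = 0.00756). Its level was 3.99 in fraction 2 and 2.08 in fraction 11. Among fractions 3 to 10 alone, 6 of the 13 varied with position (12.9% of all probes) and 1 differed between the ends (2.62%). Without fraction 2 the count that varied was 8 (25.1%). With slide as a term in the fit the counts were 0 (0.745% of all probes) and 3 (6.08%). Shisa8 and Cacng5 were highest in fraction 12, at 3.00 and 3.40, beside lows of -1.11 (fraction 8) and -0.17 (fraction 5) and medians of 0.56 and 0.73. Cacng2, Cacng5 and Shisa8 were picked out after their values were seen.

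Neto1, the auxiliary subunit of kainate receptors, was higher rostrally by 1.69 ± 0.38 (SE, limma, adjusted p = 0.0135). Over the 12 coronal fractions its level ran from 0.61 in fraction 3 to 3.82 in fraction 8. The call for Neto1 was lost among fractions 3 to 10 and with slide as a term. For Neto2 the value was -0.26 ± 0.28 (adjusted p = 0.568).

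**Figure D5:**
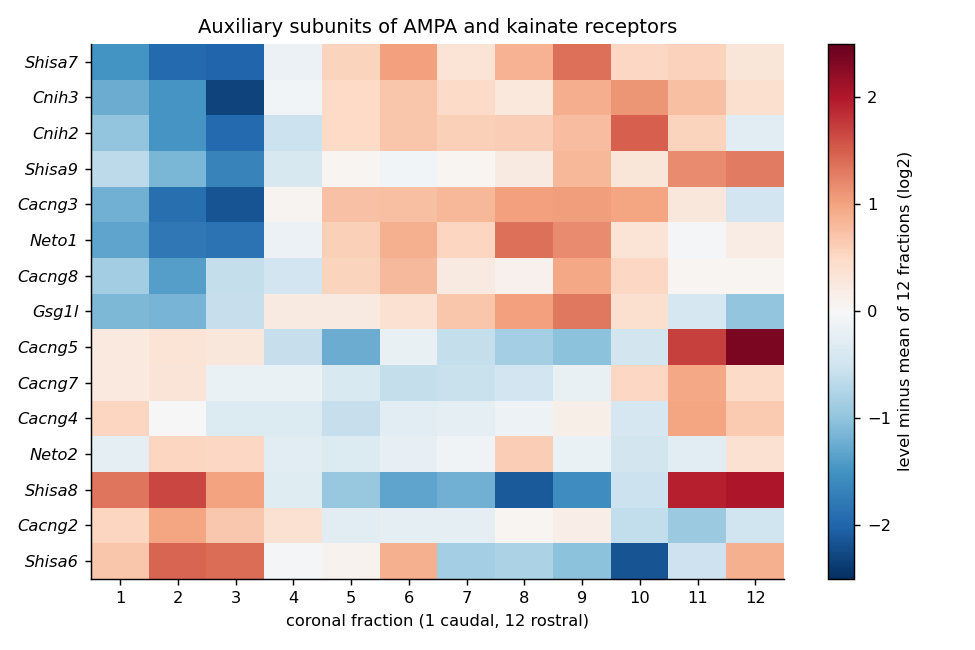
Level of the 13 AMPA and 2 kainate receptor auxiliary subunits minus the mean over the 12 coronal fractions (log2, colour), ordered by the difference between fractions 9 to 12 and 1 to 4, 1 array per cell. Shisa7 to Gsg1l are low in fractions 1 to 3, Cacng2 is high there, and Cacng5 and Shisa8 are highest in fraction 12 at 3.40 and 3.00.

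Of the scaffolds that hold the receptors at the synapse, 7 of 11 varied along the coronal axis (33.7% of all probes did) and 6 were higher rostrally, none lower (16% of all probes differed). With 1 fraction left out these counts were 6 to 8 and 3 to 6, and over all alternatives both fell as low as 1. Of the 32364 probes, 7938 to 11145 varied and 2691 to 6234 differed with 1 fraction left out. Over all alternatives these all-probe counts fell as low as 241 and 847. The same all-probe counts stand beside the 2 lists that follow. Dlgap2 had the largest difference (2.84 ± 0.62 SE, limma, adjusted p = 0.0116), followed by Homer1 (1.14 ± 0.35, adjusted p = 0.0456) and Dlg4, the gene of PSD-95 (1.02 ± 0.23, adjusted p = 0.0142). Of the proteins that bind receptors from outside the cell, 8 of 10 with a probe varied and 5 differed between the ends. With 1 fraction left out these counts were 7 to 10 and 2 to 4, and over all alternatives the lowest were 0 and 1. The pentraxins were split, with Nptx2 higher rostrally by 2.42 ± 0.36 (adjusted p = 0.00182) and Nptx1 lower, -1.91 ± 0.57 (adjusted p = 0.0433). Nptx1 was not well above background in 2 of the 4 rostral fractions (11 and 12), so the size of its difference is uncertain. Olfm3 was lower rostrally as well (-2.28 ± 0.38, adjusted p = 0.00299) and Olfm1 higher (1.38 ± 0.33, adjusted p = 0.0169). Of 10 assembly and trafficking genes, 5 varied and 4 differed between the ends. With 1 fraction left out these counts were 1 to 5 and 2 to 5, and over all alternatives the lowest were 0 and 1. Grip1, a PDZ protein that binds Gria2 and Gria3, was higher rostrally (1.50 ± 0.27, adjusted p = 0.00448), and Sacm1l was lower (-0.83 ± 0.16, adjusted p = 0.00695).

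None of the 3 editing enzymes varied with coronal position, beside 33.7% of all probes. Over all alternatives the count ran from 0 to 1, while as few as 241 of all probes were called. Adarb1, which edits the Gria2 transcript, spanned 4.52 to 5.53 over the 12 fractions, with a difference between the ends of -0.23 ± 0.22 (SE, limma, adjusted p = 0.524). Adarb2, a relative without known editing activity, was well above background on only 6 of the 28 arrays. The arrays do not measure editing.

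Of the 7 NMDA receptor subunits, 3 varied along the coronal axis, near the 33.7% of all probes, and 3 differed between the ends, beside 16%. Over all alternatives these counts ran from 1 to 4 and from 1 to 3, while as few as 241 and 847 of all probes were called. Grin2b was higher rostrally by 2.47 ± 0.54 (SE, limma, adjusted p = 0.0116), while Grin3b was lower, -3.58 ± 0.31 (adjusted p = 0.000209), and so was Grin2c, the cerebellar subunit (-1.20 ± 0.26, adjusted p = 0.0110). Grin3b was not well above background in 2 of the 4 rostral fractions (10 and 11), so the size of its difference is uncertain. Their median fitted range was 1.50. In the horizontal series, 5 of 13 AMPA auxiliary subunits, 7 of 11 scaffolds and 2 of 7 NMDA subunits varied with position, beside 15.8% of all probes. With 1 fraction left out these counts were 0 to 4, 0 to 4 and 0 to 3, beside 0 to 5754 of the 32364 probes. In the sagittal series they were 5, 1 and 1, beside 14.7% of all probes. With 1 sagittal fraction left out they were 0 to 10, 0 to 3 and 0 to 4, beside 0 to 15244 of the 32364 probes.

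Finally, the genes with the most similar course were listed for each subunit, over all 28 fractions with the mean of each plane removed. The candidates were 12295 symbols whose probe was well above background on every array. The likeness is Pearson's r over the 28 arrays, which share scaling and neighbouring tissue, and is given as a description. Gria4 was most like Chn2 (r = 0.973), Etv1 (0.972) and Cbln1 (0.965). Gria2 was most like Plppr4 (0.954), Akap5 (0.948), whose product anchors kinases at AMPA receptors, and Rapgef2 (0.945). The closest to Gria3 were Prkaa2 (0.961), Tspyl5 and Wdr47, and the closest to Gria1 were Rev3l (0.883), Golga4 and Ubn2. Among the kainate subunits, Grik5 was most like Pitpnm2 (0.980), Arhgap33 and Arpc2, and Grik3 most like Zswim6 (0.932), Sema5b and Zfp563. Grik4 had Spns2 (0.895), Klhl26 and Ica1 as its closest, Grik1 had Larp4 (0.873), Pcnx4 and Atxn2, and Grik2 had Unc13d (0.856), Pde9a and Gnmt. Within the family itself, Gria1 and Grik3 were the most alike pair (r = 0.85) and Gria4 and Grik5 the most opposed (-0.73). By series, the r of that pair was -0.94 (coronal), 0.05 (horizontal) and -0.55 (sagittal).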

How the data were processed

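Cy3-labelled RNA from every fraction was read on its own 1-colour Agilent array. The intensity values deposited by the authors come from Feature Extraction 10.5.1.1, which subtracts background from each spot. The authors also deposited log2 values per probe, scaled per array (column medians -2.63 to -1.63), which matched the scanner values to a constant and were used as an alternative. Here, outlier spots were dropped, spots of a probe averaged, log2 taken and each array's 75th percentile subtracted. Probes that rose well above background in some fraction of every plane, without 130 that had lost a spot, were tested (32364 of 55681), and 27235 probes were named through RefSeq (GRCm38.p6, names only). Tests used limma 3.58.1 with Benjamini-Hochberg adjustment and a threshold of 0.05. The residual around the curve is the only error, and p-values cover only the spread between these fractions. Members and gene lists were chosen with earlier results of these data known. Named list genes were at most 4 past the threshold per list with the largest difference, and Cacng2, Cacng5, Shisa8, Neto2, Adarb1 and Adarb2 were added outside this rule. The likeness lists hold 3 symbols per subunit. The fits were tried on simulated data with independent noise, which lack the likeness of neighbouring fractions and any effect of slide or brightness. Alternatives were array median, quantile and normexp scaling (median foreground, since no mean foreground column was found, offset 50), 2 other filters, probe means, slides, splines and each fraction left out.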

Additional observations from a re-analysis of the deposited data

Results flagged for a closer look

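Grik3 in sagittal fraction 1 stood apart from the other 9 sagittal fractions. Its level there was -0.83, beside 0.51 to 1.62 in the others, and the gap to the nearest of them was 0.546 of the whole range, above the critical value of Dixon's test. In all, 18 sets of a subunit and a plane were examined, from the horizontal and sagittal series and not the coronal one. Chance would give 0.9 such results if the fractions of a set were repeats of 1 another. They are different places along an axis, so that number does not apply and the result is a description. The array of this fraction had the lowest 75th percentile of signal, and the part of this in the result was not tested.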

How the results depend on the processing

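Each fraction is 1 array, and the 3 mice each give 1 plane. Within planes, these scalings moved the median difference of all probes by over 0.1. Array median scaling moved it from -0.05 to -0.20 in the horizontal contrast, from -0.08 to 0.38 in the sagittal middle contrast and from -0.06 to -0.41 between sagittal fractions 6 to 10 and 1 to 5. Quantile normalization moved the sagittal middle value to 0.09. Normexp moved the coronal value from 0.03 to 0.14, the sagittal middle value to -0.23 and that between sagittal fractions 6 to 10 and 1 to 5 to 0.04. The share of all probes called by the same fit is given in brackets after a count. Of the 9 subunits, the count that varied along the coronal axis (6) became 0 with slide as a term (0.745%). The fitted ranges of Gria2, Gria3, Gria4 and Grik5 were then 3.19, 1.66, 3.58 and 2.34, and those of Grik2 and Grik4 1.68 and 1.54. Slide and position cannot be told apart at the ends of the coronal series, so these ranges do not separate the 2. Among fractions 3 to 10 alone the coronal ranges of Gria2, Gria3 and Grik4 were 1.74, 0.97 and 0.67, smaller than in the full series. The horizontal count (3) became 7 with array median scaling (59.8%) and 0 with 1 spline degree of freedom fewer (0.00309%), and lay between 0 and 2 with 1 fraction left out (0% to 17.8%). The sagittal count (2) became 0 with array median scaling (1.04%), with slide as a term (7.79%), among fractions 5 to 10 (0%) and, chosen after seeing the data, without fractions 1 and 9 (2.90%). The fitted range of Gria4 was then 3.12 with array median scaling and 3.08 with slide as a term (2.60 before), and that of Grik3 2.93 and 2.34 (2.36 before). Both ranges were smaller among fractions 5 to 10 (1.60 for Gria4, 1.21 for Grik3) and without fractions 1 and 9 (1.39 and 1.04). The count was 1 with quantile normalization (8.12%) or 1 degree of freedom fewer (12.7%), 5 with normexp (44.2%), and 0 to 5 with 1 fraction left out (0% to 47.1%). The count that differed between the coronal ends (4) became 2 with no filter on dim probes (6.24%), with slide as a term (6.08%) and among fractions 3 to 10 (2.62%), and lay between 2 and 4 with 1 fraction left out (8.31% to 19.3%). The difference for Gria1 turned to -0.0502 with slide as a term or among fractions 3 to 10, and with 1 fraction left out it lay between -0.11 and 0.33. That for Gria3 lay between -0.0328 and 0.46 with 1 fraction left out, and that for Grik4 turned to 0.23 with slide as a term or among fractions 3 to 10. None of the turned values reached the threshold, and the causes were not tested. Grik2 fell by 0.42 between the coronal ends with normexp (limma, adjusted p = 0.174). Between planes, 0 of the 9 differed with the fraction number as a replicate block, as without it. The numbers do not pair the samples, since fraction 1 is another place in each plane.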
